A study of Saccharomyces cerevisiae with 2 samples.

Results

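The genes described here are 8 hexose transporter genes of budding yeast (Saccharomyces cerevisiae), HXT1 to HXT8, and the genes of the glucose sensors, SNF3 and RGT2. They were chosen by name: each probe set to which the platform annotation gives 1 of these symbols was taken. All 10 genes were found, each with 1 probe set, among 5656 genes that had a probe set of their own. No probe set shared by several genes named any of the 10.

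The cells made histone H3 with arginine in place of lysine at positions 4, 36 and 79 (H3 K4,36,79R), and also wild-type H3 while they grew in galactose. A move to glucose medium repressed the wild-type H3, and RNA was taken after 18 hours in glucose, at an OD600 of 0.5 to 0.7. The 2 arrays are replicate cultures of this mutant, 1 array for each culture, and both carried the mutant histone and grew in glucose medium. Wild-type cultures and other times were not analysed here, so the values give levels in the mutant and the spread between its cultures, with no test and no effect of the mutation. The sources used here give neither the glucose concentration nor the strain background.

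Yeast takes up glucose by facilitated diffusion through the Hxt proteins, which differ in affinity. Hxt1 and Hxt3 are low-affinity carriers that serve cells in abundant glucose, while Hxt6 and Hxt7 have high affinity, Hxt2 and Hxt4 have moderate to high affinity, and these serve cells when glucose is scarce. Snf3 and Rgt2 resemble transporters but act as receptors: Snf3 senses low and Rgt2 high glucose, and their signal leads to the loss of Mth1 and Std1, which act with the repressor Rgt1 at HXT promoters.

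The values below are MAS5 signals as deposited, on a linear scale of arbitrary units. MAS5 is the Affymetrix algorithm that condenses the probe pairs of a probe set into 1 signal. Probe sets differ in how well they bind their target, so the signals of 2 genes cannot be compared as amounts of transcript. Over the 9335 probe sets the signal had a median of 25.5 for replicate 1 and of 25.7 for replicate 2. Background was set by 13 control probe sets for mouse genes or for the antisense strand of spiked bacterial transcripts, whose 95th percentile was 1.86 on replicate 1 and 1.69 on replicate 2. All 10 genes exceeded it on both arrays, as did 96.3% of all single-gene probe sets, so passing it says little about expression. All 10 also exceeded the brightest of these control probe sets, as did 95.7% of all. Multiples of background given below divide a signal by the 95th percentile of the same array. That percentile was lower on replicate 2, which raises the multiples there, so they do not measure the change between the arrays. The GAL genes, which galactose induces and glucose represses, were all lower on replicate 2. GAL1, the galactokinase, gave 7.23 and 6.67 on replicates 1 and 2, GAL7 gave 19.0 and 15.7, and GAL10 gave 38.7 and 26.6. GAL7 was 1.21-fold and GAL10 1.45-fold lower on replicate 2, and GAL1 1.08-fold. Of all single-gene probe sets, 56.0% were higher on replicate 2, and 7.83% were lower on it by more than 1.2-fold. No array from galactose was used, so these values do not check the medium.

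The low-affinity transporters were both above background by a wide margin and both read higher on replicate 2. HXT1, the carrier gene typical of high glucose, gave 89.1 on replicate 1 and 107.9 on replicate 2, or 98.5 ± 13.3 (SD, n = 2). Replicate 2 was 1.21-fold higher, a log2 difference of 0.28. This was the largest difference among the 10 genes, and larger than the SD of 0.16 among 1856 single-gene probe sets with signals within 2-fold of its own.

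HXT3, a low-affinity carrier gene expressed over a wide range of glucose levels, gave 755.9 on replicate 1 and 813.2 on replicate 2, or 784.5 ± 40.5 (SD, n = 2). Its log2 difference was 0.11, within the SD of 0.12 of 288 probe sets of like signal. The signal of HXT3 was 407.3 times background on replicate 1 and 481.6 times on replicate 2, and that of HXT1 was 48.0 and 63.9 times.

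The transporters of higher affinity were also far above background after 18 hours in glucose, and their arrays differed by at most 1.09-fold. HXT2, which encodes a carrier of moderate to high affinity, gave 377.5 on replicate 1 and 347.6 on replicate 2, or 362.6 ± 21.2 (SD, n = 2), lower on replicate 2 by 7.93%. HXT4, for a carrier of the same kind, gave 111.1 and 115.1, or 113.1 ± 2.77. Its arrays differed by 3.53%, with replicate 2 the higher.

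HXT6 and HXT7 encode near-identical high-affinity carriers. Their probe sets are of the family type, which can match several related transcripts, so each signal may hold RNA of the other gene, and the share was not tested. HXT6 gave 710.5 on replicate 1 and 668.8 on replicate 2, or 689.7 ± 29.5 (SD, n = 2), a log2 difference of -0.09. HXT7 gave 543.4 and 551.2, or 547.3 ± 5.55, a log2 difference of 0.02. As deposited, the genes thus read in opposite directions between the arrays. Each difference was less than the SD of like-signal probe sets, 0.12 for HXT6 and 0.13 for HXT7.

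**Figure D1:**
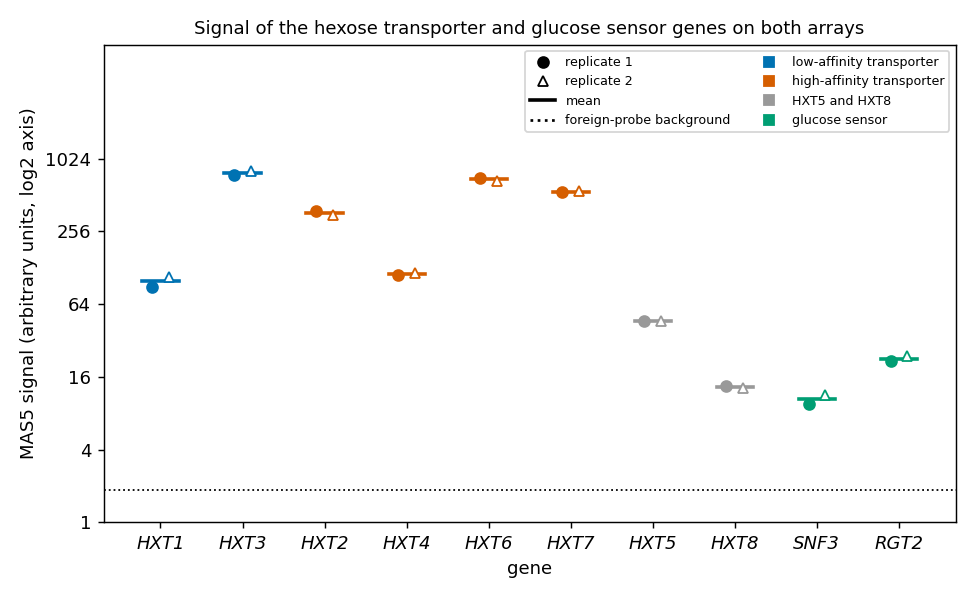
Deposited MAS5 signal (log2 axis, arbitrary units) of each gene on replicate 1 (filled circles) and replicate 2 (open triangles), with the mean as a bar and the higher of the background values, 1.86, as a dotted line. Colours mark the classes, each gene's arrays lie close together, and heights of different genes are not comparable as transcript amounts.

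HXT5 and HXT8 fall outside this low and high division. HXT5, a carrier of moderate affinity known for its expression in slowly growing and stressed cells, gave 46.7 on replicate 1 and 46.6 on replicate 2, or 46.6 ± 0.0501 (SD, n = 2). That was the smallest difference among the 10 genes, a coefficient of variation of 0.108%, against a median of 4.72% and a highest value of 13.5% for HXT1. HXT8, another family member, gave 13.3 and 12.8, or 13.1 ± 0.351. Its signal was 7.18 times background on replicate 1 and 7.59 times on replicate 2, the lowest multiples among the 8 transporters.

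The sensor genes had low signals on these arrays and both read higher on replicate 2. SNF3, the sensor of low glucose, gave 9.49 on replicate 1 and 11.3 on replicate 2, or 10.4 ± 1.29 (SD, n = 2). It was 1.19-fold higher on replicate 2, and its log2 difference of 0.25 was within the SD of 0.27 of 1514 probe sets of like signal. RGT2, the sensor of high glucose, gave 21.5 and 23.6, or 22.6 ± 1.49. Its log2 difference of 0.14 was also within the SD of 0.22 at that signal. SNF3 was 5.11 and 6.70 times background on replicates 1 and 2, and RGT2 was 11.6 and 14.0 times.

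Between the arrays, 1 of the 10 genes, HXT1, differed by more than 1.2-fold, and it was higher on replicate 2. HXT1 lay so close to this threshold that it fell under it after median centring, after a lowess correction, with an offset of 16 and with the median of the 50 nearest probe set numbers taken off. Of all 6497 single-gene probe sets with a signal on both arrays, 18.7% differed by as much in either direction, 10.9% with replicate 2 higher and 7.83% with it lower. A mean of 20 or more was reached by 8 of the 10 genes (all but HXT8 and SNF3) and by 4492 single-gene probe sets. Of these 4492, 10.2% differed by that much, 5.52% with replicate 2 higher and 4.72% with it lower. The count among the 10 genes is near these shares. Beyond 1.5-fold lay 0 of the 10 genes, 4.08% of all single-gene probe sets and 0.757% of the brighter ones.

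Of the 10 genes, 6 read higher on replicate 2 (HXT1, HXT3, HXT4, HXT7, SNF3 and RGT2) and 4 lower (HXT2, HXT5, HXT6 and HXT8). Their median log2 difference was 0.04, against 0.03 over all single-gene probe sets, of which 56.0% were higher on replicate 2. As deposited, the difference of 9 of the 10 lay within 1 SD of probe sets with like signals, and HXT1 was the exception. The matching share of all single-gene probe sets was not computed, so this count does not set these genes apart from others. For 6 of the 10, the difference was larger in size than the median size among those probe sets of like signal, and for 4 it was not. A median splits its probe sets evenly, so this count is near what any list of genes would give.

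**Figure D2:**
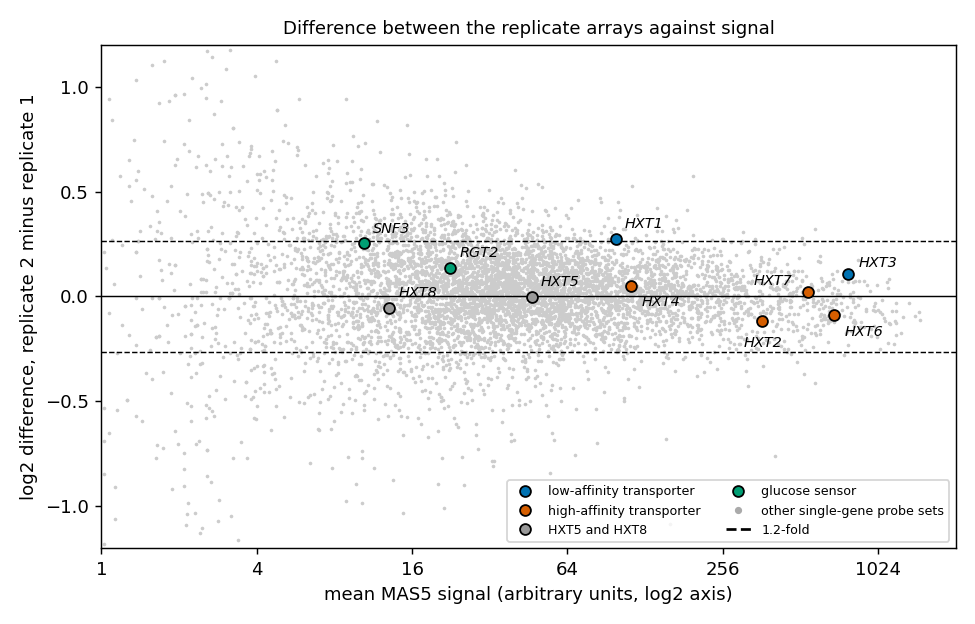
Log2 difference between the arrays (replicate 2 minus replicate 1) against mean signal (log2 axis, arbitrary units), with the 10 genes coloured by class and other single-gene probe sets in grey; 131 probe sets outside the axes are not drawn. Dashed lines mark 1.2-fold, HXT1 lies just above the upper line and SNF3 just below it.

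The low-affinity transporters read higher on replicate 2, while those of higher affinity lay on either side of 0. The mean log2 difference was 0.19 for the 2 low-affinity transporters (HXT1 0.28 and HXT3 0.11) and -0.03 for the 4 of higher affinity (from -0.12 for HXT2 to 0.05 for HXT4). The difference of these means was 0.22. With HXT3 alone as the low-affinity class it was 0.14. It was not tested, because each side of the comparison is 1 array, and it concerns how the arrays differ, not which class was more abundant.

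Of the 10 genes, 6 lie in small clusters on the chromosomes. In the RefSeq annotation of assembly R64, HXT7 and HXT6 are neighbours and HXT3 follows with 1 protein-coding gene between, and likewise HXT4, 1 protein-coding gene, HXT1 and HXT5 stand in a row. Array probe sets of neighbouring genes have neighbouring numbers. Around HXT7, HXT6 and HXT3, the 50 probe sets nearest in number had a median log2 difference of 0.10, and around HXT4, HXT1 and HXT5 it was from 0.05 to 0.06. With these medians taken off, HXT1 was at 0.22, HXT3 at 0.00, HXT4 at -0.01, HXT5 at -0.06, HXT7 at -0.08 and HXT6 at -0.19. So the direction of HXT4 and HXT7 turned, and HXT3 lay at the median of its surroundings, while HXT1 stayed the highest of the 6 but fell under 1.2-fold. The part of probe set number in these results was not tested further.

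**Figure D3:**
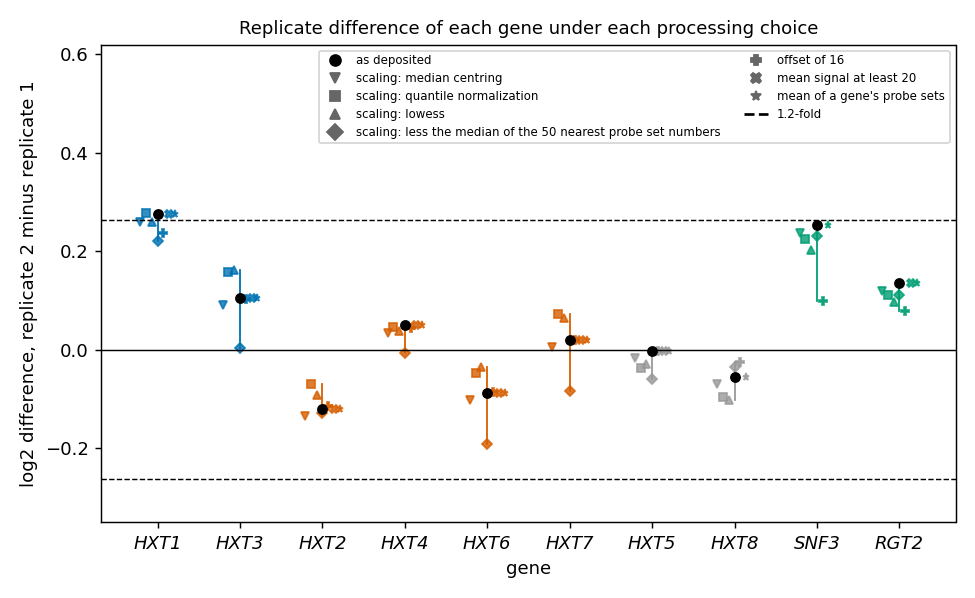
Log2 difference between the arrays for each gene as deposited (black circles) and under each alternative (coloured symbols, shapes as in the key), with dashed lines at 1.2-fold. HXT1 lies from 0.22 to 0.28 in the alternatives, and HXT4 and HXT7 cross 0 when the median of the 50 nearest probe set numbers is taken off.

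Of the other 10 hexose transporter genes, 3 had a probe set of their own, 6 were measured only by shared probe sets, and 1, HXT12, was in neither. GAL2, the galactose permease, gave 13.5 and 12.1 on replicates 1 and 2, and HXT10 gave 5.61 and 6.15. HXT14 gave 1.63 and 3.23, so it was below background on replicate 1 and above it on replicate 2, and no fold is given for it. The probe set shared by HXT13, HXT15, HXT16 and HXT17 gave 43.6 and 46.3. Those shared by HXT9 and HXT11 gave 29.3 and 30.0, and 4.56 and 4.17, and none of them can be assigned to 1 gene.

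All 8 genes that carry the sensor signal were above background on both arrays, as were 96.3% of all single-gene probe sets. Between the arrays, 0 of the 8 differed by more than 1.2-fold, against 18.7% of all single-gene probe sets and 10.2% of the brighter ones. The median log2 difference of the 8 was 0.07, against 0.03 over all. MTH1, whose product is degraded on the glucose signal, gave 30.0 on replicate 1 and 32.1 on replicate 2, or 31.0 ± 1.49 (SD, n = 2). STD1, its paralogue, gave 54.6 and 57.9, or 56.3 ± 2.39. RGT1, the repressor that binds HXT promoters, gave 78.3 and 89.9, or 84.1 ± 8.25, a log2 difference of 0.20 and the largest of the 8.

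The casein kinase genes, YCK1 and YCK2, act at the membrane beside the sensors, and gave 83.9 ± 1.65 and 41.7 ± 0.362 (SD, n = 2). GRR1, the F-box protein gene of the ubiquitin ligase that marks Mth1 and Std1, gave 45.4 ± 1.32. Genes of the ligase core gave 167.3 ± 12.6 for SKP1 and 85.2 ± 0.710 for CDC53. SKP1 differed most of these 5 between the arrays, by 1.11-fold.

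Of 13 genes of glucose repression, the branch through Snf1 and Mig1 that also acts on the high-affinity HXT genes, 2 differed by more than 1.2-fold, 1 in each direction (18.7% of all single-gene probe sets did, and 10.2% of the brighter ones), with a median log2 difference of 0.02. SNF1, the gene of the yeast AMP-activated kinase, gave 48.8 on replicate 1 and 60.1 on replicate 2, or 54.4 ± 7.97 (SD, n = 2), 1.23-fold higher on replicate 2. CYC8, for the corepressor subunit also called Ssn6, gave 48.8 and 34.6, or 41.7 ± 10.01, 1.41-fold lower on replicate 2. Neither difference has a test.

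MIG1, the repressor gene of this branch, gave 31.1 on replicate 1 and 29.9 on replicate 2, and MIG2, a related repressor gene, gave 26.8 and 27.0. HXK2, the hexokinase that phosphorylates the incoming glucose and takes part in repression, gave 311.9 and 370.5, or 341.2 ± 41.4 (SD, n = 2). It was 1.19-fold higher on replicate 2. GLC7, the protein phosphatase of the branch, has 2 probe sets that disagreed: the brighter, which was counted, gave 104.2 and 105.8, while the other gave 30.6 and 41.7, which is 1.36-fold higher on replicate 2.

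**Figure D4:**
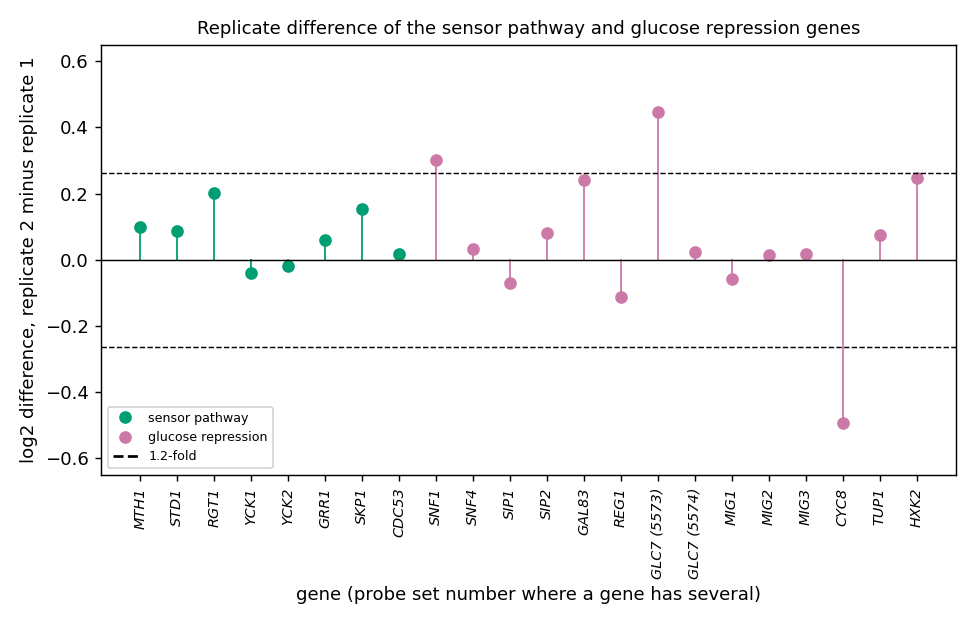
Log2 difference between the arrays (replicate 2 minus replicate 1) for each gene of the sensor pathway and of glucose repression, with dashed lines at 1.2-fold. CYC8 lies below the lower line, and SNF1 and the dimmer probe set of GLC7 lie above the upper line.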

How the data were processed

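RNA of 2 replicate cultures of the H3 K4,36,79R mutant, 18 hours in glucose, was measured on 1-colour Affymetrix arrays from about 20 µg of total RNA each, per the labels' protocols. The deposited table holds 1 linear intensity for each probe set and array, and the submitters' processing notes name MAS5 as the tool by which the authors made it. The sources used here do not give its version, background settings, scaling target or genome build. A factor per array would move all genes of that array alike.

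Genes were named from the platform annotation, which can be old: 6504 probe sets have 1 symbol, and all 6504 matched the RefSeq R64 table by gene identifier. Signals were used as deposited, with no offset, and differences are log2 of replicate 2 over replicate 1 (Python 3.11.15, numpy 2.4.6, pandas 2.3.3). Where a gene had several probe sets, the brightest was used. The spread at a gene's signal is the SD of that difference over other single-gene probe sets with mean signals within 2-fold. With 1 group and 1 array per culture, no p-value was computed, and the number of arrays limits the precision. The counting of differences was tested on simulated data with less noise than these arrays show, so that test gives no rate of false calls here. Alternatives changed the scaling (median centring, quantile, lowess in statsmodels 0.14.6, or the 50 nearest probe set numbers), the offset, the filter, the probe set and the fold.

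The text names all 10 members, every gene of the sensor pathway, the 2 brightest of the other transporters, 4 genes of glucose repression, and any gene of these lists past 1.2-fold. The second probe set of GLC7, and GAL1, GAL7 and GAL10 as genes that respond to the medium, are given too. With 2 arrays of 1 group no gene was sought for a like pattern. The members and lists were chosen with earlier results of these data known.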

Additional observations from a re-analysis of the deposited data

How the results depend on the processing

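The count of genes past 1.2-fold between the arrays, 1, rests on HXT1 lying just over that threshold. It was 0 after median centring, after lowess and with the median of the 50 nearest probe set numbers taken off. It was also 0 with an offset of 16 and at 1.5-fold, and 1 in the other 3 alternatives. Of these 3, only quantile normalization could have moved it. The filter on dim signals keeps HXT1, and each gene has 1 probe set. The median log2 difference of the 10 genes, 0.04, ran from 0.02 to 0.06 in 6 alternatives and turned to -0.020 with the nearest probe set numbers taken off, an alternative that lowers genes whose neighbours read high. That of the higher-affinity transporters, -0.03, turned to 0.0013 after lowess, so its sign is not settled, and the cause was not tested. That of the low-affinity transporters, 0.19, ran from 0.11 to 0.22. The difference between these classes was 0.20 to 0.22 in 7 alternatives and 0.14 with HXT3 alone, a choice made after seeing the data. Median centring, the filter on dim signals and the mean of probe sets could not change this class difference, so they lend it no weight. Of the 10 genes, 8 kept their direction in each alternative that gave them a value (7, or 6 for HXT8 and SNF3, which the filter on dim signals leaves out), and HXT4 and HXT7 did not. Only the 4 scalings could turn a direction, because the offset, the filter and the mean of probe sets keep it by construction. The count above background was 10 in every alternative, also without either replicate. Leaving out a replicate could not lower it, because each gene already had to exceed background on both arrays. With either replicate alone, signals are those printed for each array, such as 89.1 and 107.9 for HXT1. Each gene has 1 probe set, so the alternatives on probe sets could change nothing. No paired analysis was possible because the study's arrays used here form 1 group. Dim signals limit what can be read: among probe sets with signals from 4 to 16, which holds HXT8 and SNF3, the SD of the log2 difference was 0.29, against 0.13 in the brightest class.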
